A study of Mus musculus with 6 samples.

Results

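The GTPases of immunity-associated proteins (GIMAPs) are a family of small GTP-binding proteins, and the genes described here are its 8 mouse members that the rule listed by symbol, Gimap1, Gimap3, Gimap4, Gimap5, Gimap6, Gimap7, Gimap8 and Gimap9, out of 32227 genes in the files. All 8 were found in the files and in all 6 libraries. The family's level is the sum of UMIs (unique molecular identifiers, each standing for 1 captured RNA molecule) over the 8 genes, divided by all UMIs of a pool of cells and given as CPM, the usual scaled count.

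The study asked how the inhibitory receptor PD-1, encoded by Pdcd1, acts in CD8 T cells of the thymus and in their progeny. Mouse CD8 T cells were enriched with magnetic beads from thymus and spleen at baseline and from B16-OVA melanoma tumors taken on day 12, and were sequenced with the droplet method PIPseq, with 1 library for each of 3 tissues and 2 labels. Mice labelled Pdcd1 cKO were Pdcd1fl/fl with the E8I CD8-Cre transgene, which is active in CD8 cells only after positive selection, and mice labelled Pdcd1fl/fl carried the same floxed alleles without Cre. All were adults on a C57BL/6 background, and each tumor library pooled several mice, so that no spread between mice could be measured.

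Labels are written before counts in the order Pdcd1fl/fl, then Pdcd1 cKO. The cell filter (at least 500 genes and 1000 UMIs, at most 20% mitochondrial UMIs) kept 1067 of 1067 and 2635 of 2674 barcodes in the thymus. It kept 1478 of 6929 and 4928 of 4963 in the spleen, and 456 of 457 and 561 of 561 in the tumor. The kept cells held 6389966 and 19143524 thymic, 2220981 and 8923997 splenic, and 9380835 and 7924590 tumor UMIs. Median UMIs per cell were 4361 and 5417 for thymus, 1320.5 and 1615 for spleen, and 13809.5 and 9510 for tumor. Depth, tissue and library therefore cannot be told apart in any comparison between tissues. The spleen libraries had 2 cell barcodes in common and every other pair of libraries had 0.

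Pdcd1 RNA went against the labels in thymus and spleen. In thymic CD8 cells without Dntt RNA it was 1.04 CPM (1 UMI) under the label Pdcd1fl/fl and 14.0 CPM (72 UMIs) in the library labelled Pdcd1 cKO. In splenic CD8 cells it was 0.724 CPM (1 UMI) and 12.2 CPM (89 UMIs), and in tumor CD8 cells 105 CPM (702 UMIs) and 113 CPM (799 UMIs). Why Pdcd1 RNA was higher under the label Pdcd1 cKO in thymus and spleen was not tested. Where the deleted part of Pdcd1 lies relative to the counted 3′ end is not known either. The libraries are therefore named throughout by what their labels say. No comparison between labels is read as an effect of PD-1.

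GIMAP proteins are found mainly in lymphocytes, where several of them sit on membranes of the endoplasmic reticulum, lysosomes, mitochondria or lipid droplets. They act in the survival and turnover of T and B cells, and loss of Gimap5 in rats or mice leaves very few peripheral T cells. In the thymus several of the genes are known to be turned up as thymocytes complete selection and mature. The thymus was therefore read by Dntt, the template-independent DNA polymerase of cells that are rearranging their receptor genes.

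In the thymus the family level was higher in pools without Dntt RNA than in those with it, and within each of these higher in cells with CD8 RNA. Cells with at least 1 Dntt UMI and no UMI of Cd8a or Cd8b1 had 223 CPM (95% interval 205 to 243) under the label Pdcd1fl/fl and 295 CPM (281 to 310) in the library labelled Pdcd1 cKO. Dntt-positive cells with CD8 RNA had 365 CPM (342 to 388) and 533 CPM (516 to 550). Dntt-negative cells without CD8 RNA had 526 CPM (454 to 606) and 762 CPM (709 to 818), and Dntt-negative cells with CD8 RNA had 1053 CPM (989 to 1120) and 1293 CPM (1262 to 1325). The order of the 4 pools was the same in both thymus libraries, and neighbours in it did not overlap within their intervals. These are exact Poisson intervals, and all intervals given here cover counting error alone, not the spread between mice.

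Within each label the splenic pools stood highest, and tumor CD8 cells were near the thymic pool with Dntt and no CD8 RNA. Splenic CD8-positive cells had 1374 CPM (1313 to 1437) and 1494 CPM (1466 to 1522), and CD8-negative cells of the same libraries had 1258 CPM (1183 to 1336) and 1494 CPM (1435 to 1555). Tumor CD8-positive cells had 216 CPM (205 to 228) and 307 CPM (294 to 320), and tumor CD8-negative cells had 68.6 and 117.8 CPM. Tumor CD8 cells without melanocyte or macrophage RNA, described below, had 377 CPM (352 to 402) and 410 CPM (392 to 430). These levels were above the thymic pool with Dntt and no CD8 RNA. They overlapped Dntt-positive CD8 cells under the label Pdcd1fl/fl and lay below them under the label Pdcd1 cKO. In the spleen the CD8-positive and CD8-negative pools had overlapping intervals in each library, whereas in thymus and tumor the CD8-positive pools were higher in all 6 pairs of pools. CD8-negative cells had median depths of 1252 and 1381 UMIs in the spleen and 15850 and 8756 UMIs in the tumor. At low depth an enriched CD8 T cell may hold no CD8 UMI, so CD8-negative need not mean the same in each tissue. The thymic pools of Dntt-negative CD8 cells held 240 and 956 cells, the splenic CD8 pools 863 and 3885, and the tumor CD8 pools 344 and 512.

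**Figure D1:**
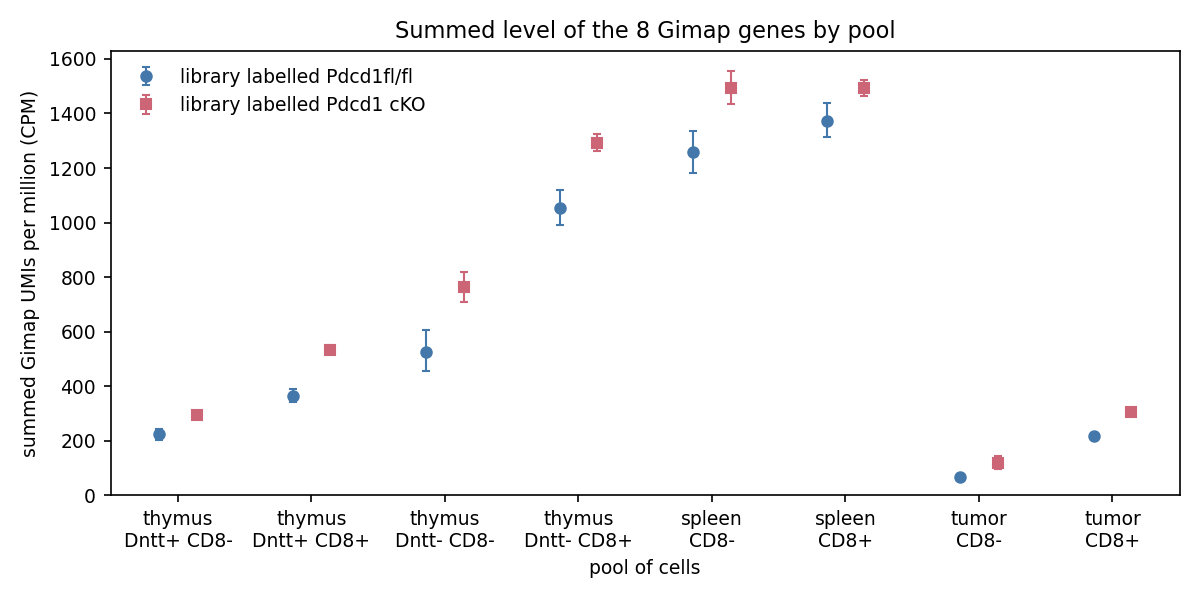
Summed level of the 8 Gimap genes (CPM, vertical axis) in 8 pools of cells for each label. Points are libraries and bars are exact Poisson 95% intervals. The splenic pools lie between 1258 and 1494 CPM, thymic Dntt-negative CD8 cells at 1053 and 1293 CPM, and tumor CD8 cells at 216 and 307 CPM.

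Counted per cell, the same order was seen once depth was made equal. After each cell was thinned at random to 1000 UMIs, at least 1 family UMI was left in 30.7% (Clopper-Pearson 95% interval 25.9 to 35.8%) and 44.3% (40.8 to 47.8%) of Dntt-positive thymic CD8 cells. The share was 58.3% (51.8 to 64.6%) and 68.7% (65.7 to 71.7%) of Dntt-negative ones, 69.3% (66.1 to 72.4%) and 74.7% (73.3 to 76.1%) of splenic CD8 cells, and 26.5% (21.9 to 31.5%) and 31.6% (27.6 to 35.9%) of tumor CD8 cells. As a low estimate of free RNA, 0 of 19 tumor cells with melanocyte RNA and no T-cell RNA in the library labelled Pdcd1fl/fl kept a family UMI, which allows a share of up to 17.6%. Those 19 cells had a median of 12099 UMIs and held 15 family UMIs before thinning, or 49.98 CPM (28.0 to 82.4), against 216 CPM in CD8 cells of that library. Asking for no T-cell RNA also leaves out cells that caught free T-cell RNA, so these values may lie below the background in other cells. The library labelled Pdcd1 cKO had 1 such cell, too few for a share, and no estimate of free RNA is given for thymus or spleen. Without thinning, 91.3% and 92.4% of tumor CD8 cells held a family UMI against 81.6% and 88.6% of splenic ones, an order that followed the median depths of 13497 and 9580 against 1374 and 1686 UMIs.

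A thinned cell rarely showed many members at a time. The mean number of members detected per cell was 0.821 and 1.03 in Dntt-negative thymic CD8 cells, 1.07 and 1.22 in splenic CD8 cells, and 0.305 and 0.373 in tumor CD8 cells. At least 2 members were detected in 18.3% and 27.1% of the thymic, 29.4% and 35.2% of the splenic, and 4.07% and 4.49% of the tumor cells. At 1000 UMIs per cell, whether a cell without a member lacks its RNA cannot be seen.

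The members known for lymphocyte survival come first. Gimap5, an endolysosomal membrane protein needed for survival of peripheral T cells, had 35.7 and 56.0 CPM in Dntt-positive thymic CD8 cells and 117.4 and 159.7 CPM in Dntt-negative ones. Its level was 200.6 and 117.4 CPM in splenic CD8 cells and 54.7 and 71.5 CPM in tumor CD8 cells. Gimap5 was highest in the spleen library labelled Pdcd1fl/fl, and in the label Pdcd1 cKO it was highest in the thymus. Gimap3, the closest relative of Gimap5, had 21.2 and 25.1 CPM in Dntt-positive and 68.5 and 69.0 CPM in Dntt-negative thymic CD8 cells. It had 101.4 and 183.6 CPM in splenic and 14.4 and 16.7 CPM in tumor CD8 cells, so that its highest pool was the spleen under each label. Gimap1, which mature T and B cells need to persist, had 36.4 and 51.9 CPM, then 80.0 and 106.7 CPM in the same thymic pools. It had 67.4 and 108.5 CPM in splenic and 19.2 and 34.8 CPM in tumor CD8 cells. The Gimap1 intervals of splenic and Dntt-negative thymic CD8 cells overlapped under each label.

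Gimap6, which binds the autophagy protein GABARAPL2, had the largest difference between spleen and tumor of the 8 members. Its level was 171.6 CPM (156 to 188) and 251.6 CPM (240 to 263) in Dntt-positive thymic CD8 cells, and 532 CPM (487 to 579.9) and 648 CPM (626 to 670) in Dntt-negative ones. It was 613 CPM (573 to 656) and 578 CPM (561 to 596) in splenic CD8 cells, and 28.6 CPM (24.7 to 33.0) and 28.5 CPM (24.7 to 32.8) in tumor CD8 cells. In tumor CD8 cells Gimap6 was below each of the thymic CD8 pools, Dntt-positive ones included, which was not so for Gimap4, Gimap5 and Gimap7. Of all family UMIs, Gimap6 gave 47.0% and 47.2% in Dntt-positive and 50.5% and 50.1% in Dntt-negative thymic CD8 cells. That share was 44.6% and 38.7% in splenic and 13.3% and 9.31% in tumor CD8 cells. The shares count UMIs with no correction for length or capture, so they are compared between pools and not between genes.

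Gimap4, which speeds the late steps of T-cell apoptosis, had 22.3 and 43.8 CPM in Dntt-positive and 102.8 and 120.3 CPM in Dntt-negative thymic CD8 cells. It had 188.3 and 248.5 CPM in splenic and 56.1 and 83.7 CPM in tumor CD8 cells. Over 12 pools (4 thymic pools of each label and the CD8 cells of spleen and tumor) Gimap4 had the widest range of the 8 members, from 6.75 CPM in Dntt-positive CD8-negative cells of the thymus labelled Pdcd1fl/fl to 248.5 CPM in splenic CD8 cells labelled Pdcd1 cKO, 36.8-fold apart. The other 7 members ranged from 5.65-fold (Gimap1) to 22.8-fold (Gimap3). Between tumor and Dntt-positive thymic CD8 cells, Gimap4 and Gimap5 were higher in the tumor under each label, the opposite of Gimap6 and Gimap9.

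Gimap7, whose human counterpart hydrolyses GTP as a dimer, had 10.03 and 18.6 CPM in Dntt-positive thymic CD8 cells, 23.9 and 47.0 CPM in Dntt-negative ones, 35.5 and 83.8 CPM in splenic and 28.0 and 42.0 CPM in tumor CD8 cells. It was the member least reduced between spleen and tumor under the label Pdcd1fl/fl, and came next to Gimap5 under the label Pdcd1 cKO. Gimap8, a longer member with several GTP-binding domains, had 10.8 and 11.5 CPM, then 24.9 and 30.8 CPM in the thymic pools, 39.1 and 49.7 CPM in splenic and 2.85 (19 UMIs) and 4.52 CPM (32 UMIs) in tumor CD8 cells. Gimap9 had 56.8 and 74.3 CPM, then 103.9 and 112.1 CPM in the thymic pools, 128.2 and 123.6 CPM in splenic and 12.1 and 24.9 CPM in tumor CD8 cells. Gimap1, Gimap3, Gimap6, Gimap8 and Gimap9 were lower in tumor CD8 cells than in either thymic pool of the same label, with overlapping intervals for Gimap3 against Dntt-positive cells under the label Pdcd1fl/fl. Without tumor cells holding melanocyte or macrophage RNA, described below, this turned for Gimap1 and Gimap3 under the label Pdcd1fl/fl. They then had 38.0 and 26.3 CPM, against 36.4 and 21.2 CPM in Dntt-positive thymic CD8 cells. The share of all genes that were lower in the tumor than in these thymic pools was not counted. Gimap9 gave 24.2% and 27.1% of family UMIs in thymic Dntt-positive CD8-negative cells, and 9.86% and 8.67% in Dntt-negative CD8-positive ones.

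**Figure D2:**
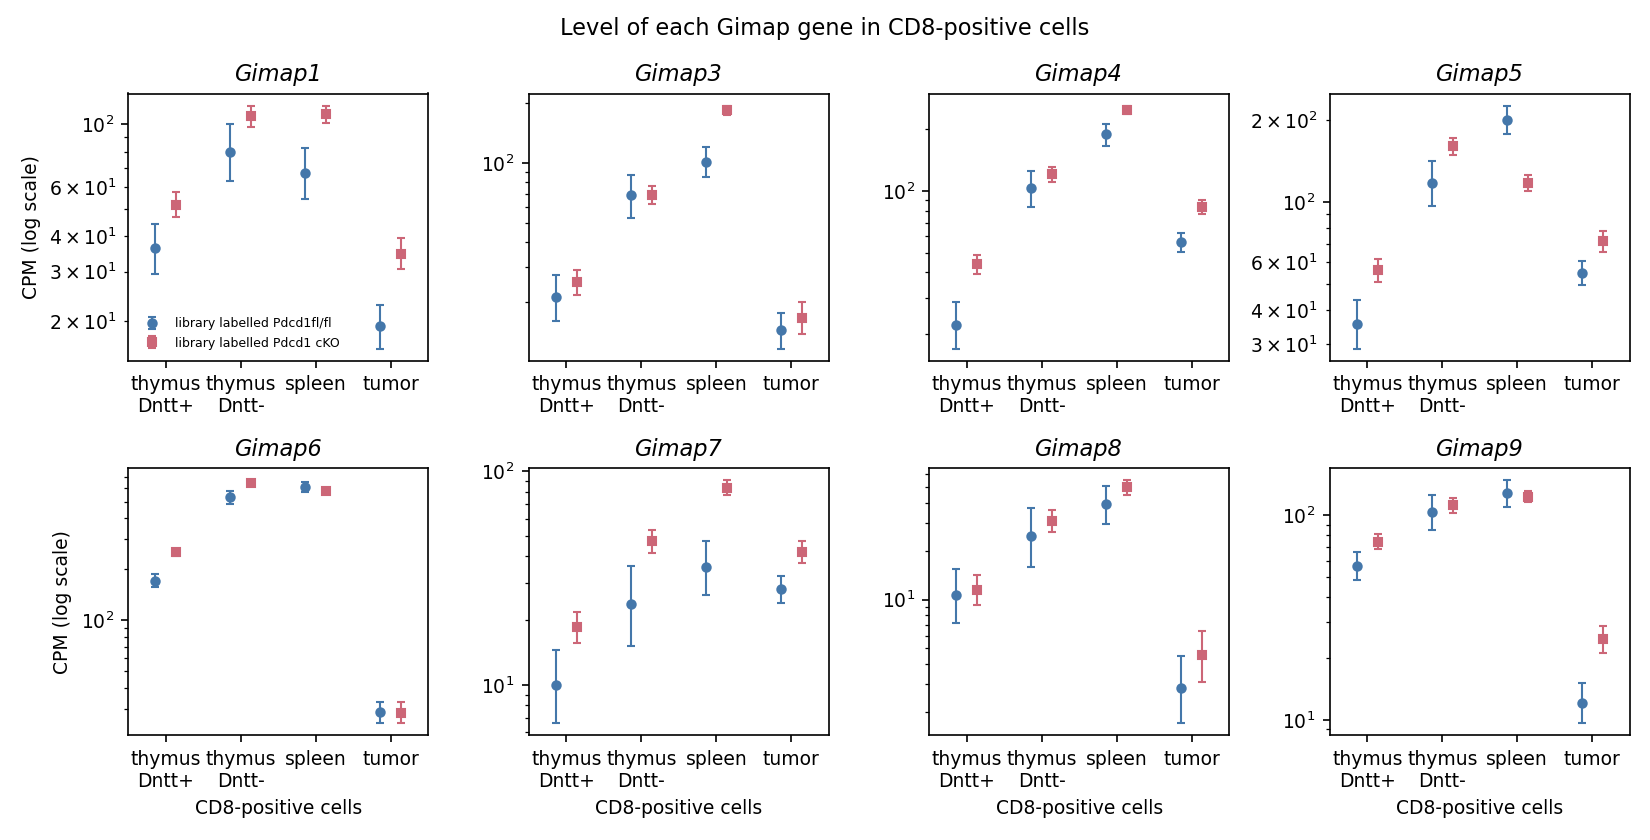
Level of each Gimap gene (CPM, log scale) in CD8-positive cells of the thymus with and without Dntt RNA, the spleen and the tumor, for each label. Bars are exact Poisson 95% intervals. Gimap6 lies at 28.6 and 28.5 CPM in the tumor against 613 and 578 CPM in the spleen, while Gimap7 lies at 28.0 and 42.0 CPM against 35.5 and 83.8 CPM.

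Absence of Dntt RNA among thymic CD8 cells went with a higher level of nearly the whole family. No cell was followed over time, and which stage of selection the Dntt-positive cells stood at was not determined. The summed level was 365 CPM in Dntt-positive and 1053 CPM in Dntt-negative cells of the library labelled Pdcd1fl/fl, a log2 ratio of 1.53 (exact conditional binomial 95% interval 1.40 to 1.66). In the library labelled Pdcd1 cKO it was 533 and 1293 CPM, a log2 ratio of 1.28 (1.22 to 1.34). At least 2-fold higher were 7 of 8 members in each library, all but Gimap9, against 8.85% of the 7100 genes with at least 50 UMIs under the label Pdcd1fl/fl and 4.79% of 10164 in the library labelled Pdcd1 cKO. Without cycling cells, described below, these calls fell to 3 and 0 members. The median gene of the library labelled Pdcd1 cKO had a log2 ratio of -0.12, and relative to the median of genes counted in both pools the family ratio there was 1.40. In the library labelled Pdcd1fl/fl that median was at 0.00 and the family ratio stayed at 1.53, while the genes at least 2-fold higher went from 628 to 634. Only the Dntt, Cd8a and Cd8b1 counts defined the pools, and no Gimap value did.

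Among members, Gimap4 had the highest ratio in the library labelled Pdcd1fl/fl, 2.21 (1.73 to 2.69), against 1.46 in the library labelled Pdcd1 cKO. Gimap5 had 1.72 and 1.51, Gimap3 1.69 and 1.46, and Gimap6 1.63 (1.45 to 1.82) and 1.36 (1.28 to 1.45). Gimap1 had 1.14 and 1.04, Gimap7 1.25 and 1.34, and Gimap8 1.21 and 1.42. Gimap9 was the exception, with 0.87 (0.49 to 1.24) and 0.59 (0.42 to 0.76). All 8 members had positive ratios in both libraries under each scaling tried, beside median genes at -0.002 and -0.12 with scaling by totals. The share of all genes with a positive ratio was not counted, and differences in ratio between members or libraries were not tested.

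Cycling RNA moved with Dntt. The cycling list (Mki67, Top2a, Birc5, Cdk1, Ccnb1 and Stmn1, all 6 detected, Stmn1 most abundant) summed to 2847 and 1560 CPM in Dntt-positive and 1261 and 370.2 CPM in Dntt-negative thymic CD8 cells. In the library labelled Pdcd1fl/fl the family had 1239 CPM in Dntt-negative cells without Mki67 or Top2a UMIs (145 cells), 810 CPM in Dntt-negative cells with them (95), 571 CPM in Dntt-positive cells without (97) and 320 CPM in Dntt-positive cells with them (252). In the library labelled Pdcd1 cKO the same 4 pools had 1339 CPM (640 cells), 1207 CPM (316), 967 CPM (352) and 358 CPM (445). Dntt-positive cycling cells were lowest and Dntt-negative cells without cycling RNA highest in each library.

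Gimap6 followed this pattern, with 600.0, 442, 238 and 157 CPM in the 4 pools of the library labelled Pdcd1fl/fl and 687, 574, 461 and 167 CPM under the label Pdcd1 cKO. Without cells holding cycling RNA, the family's Dntt ratio was 1.12 in the library labelled Pdcd1fl/fl and 0.47 (0.39 to 0.55) in the library labelled Pdcd1 cKO. With classes from cells thinned to 1000 UMIs the ratio in the library labelled Pdcd1 cKO was 0.77, and with at least 2 UMIs asked for each positive call it was 1.94. Without cells holding cycling RNA, member ratios in the library labelled Pdcd1 cKO ran from 0.17 (Gimap9) to 0.58 (Gimap6), so that 0 of 8 were 2-fold higher against 0.615% of 7810 genes. In the library labelled Pdcd1fl/fl they ran from 0.01 (Gimap7) to 1.71 (Gimap4), and 3 of the 6 members with at least 50 UMIs, Gimap3, Gimap4 and Gimap6, were 2-fold higher against 8.88% of 2973 genes. With thinned classes the ratios under the labels Pdcd1fl/fl and Pdcd1 cKO were 0.24 and 0.02 for Gimap7 and 0.47 and 1.10 for Gimap5. With at least 2 UMIs asked for each positive call the family ratio under the label Pdcd1fl/fl was 2.00. The size of the Dntt ratio in each library, and the members past 2-fold, therefore depended on these settings, and the sign of the family ratio did not. What part cycling has in the family level was not tested. Marker lists named for other cell types moved with Dntt too. From Dntt-positive to Dntt-negative CD8 cells the fibroblast list went from 2.60 CPM (2 of 5) to 272 CPM (4 of 5) under the label Pdcd1fl/fl, Dcn most abundant in each. Under the label Pdcd1 cKO it went from 1.86 CPM (Col1a2 most abundant) to 28.1 CPM (Dcn most abundant), with 5 of 5 in each. The NK cell list (Ncr1, Klrb1c, Klra8, Klre1 and Eomes, Eomes most abundant) went from 8.91 to 42.6 CPM (4 of 5, Ncr1 at 0) and from 28.0 to 61.4 CPM (5 of 5). The gamma delta T-cell list (3 genes in the files, Trdc most abundant) fell from 191 to 47.8 CPM (2 of 3, Il17a at 0) and from 147 to 36.9 CPM (3 of 3). Their part in the Dntt ratio was not tested. The median depth of the 2 Dntt classes differed as well, at 6090 and 6491 UMIs in Dntt-positive and 3500.5 and 4905 UMIs in Dntt-negative CD8 cells.

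CD8 RNA added to the difference in the thymus. Within Dntt-negative cells the family was higher in CD8-positive than in CD8-negative cells by a log2 ratio of 1.00 (0.78 to 1.23) and 0.76 (0.65 to 0.87), and within Dntt-positive cells by 0.71 (0.55 to 0.86) and 0.85 (0.77 to 0.94). For Gimap7 the ratio in Dntt-negative cells of the library labelled Pdcd1 cKO was 2.11 (1.24 to 3.13), from 10.9 CPM (11 UMIs) to 47.0 CPM (241 UMIs). Gimap9 went the other way there, with 118.8 CPM in CD8-negative and 112.1 CPM in CD8-positive cells, and its intervals overlapped.

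Between thymic Dntt-negative and splenic CD8 cells the family differed little. The log2 ratio of spleen over thymus was 0.38 (0.27 to 0.49) under the label Pdcd1fl/fl and 0.21 (0.16 to 0.25) under the label Pdcd1 cKO, and the latter came to 0.00 with mitochondrial, ribosomal protein and Malat1 counts left out of the totals. At least 2-fold higher in the spleen were 0 of 8 members against 2.69% of 5286 genes under the label Pdcd1fl/fl, and 2 of 8, Gimap3 and Gimap4, against 7.91% of 10107 under the label Pdcd1 cKO. The median gene had a log2 ratio of -0.36 under the label Pdcd1fl/fl and 0.08 under the label Pdcd1 cKO, and relative to genes counted in both pools the family ratios were 0.75 and 0.13. The calls changed with that scaling: under the label Pdcd1fl/fl Gimap4 (1.24), Gimap5 (1.14) and Gimap8 (1.01) were then at least 2-fold higher, as were 335 of 5286 genes, and under the label Pdcd1 cKO Gimap4 fell below 2-fold (0.97). Without cycling cells 1 of 8 members, Gimap3, was 2-fold higher under the label Pdcd1 cKO against 8.98% of 9534 genes. Under the label Pdcd1fl/fl the family ratio fell to 0.16 without cells holding cycling RNA and to 0.16 with at least 2 CD8 UMIs asked of each cell. Marker lists named for other cell types moved from thymus to spleen. The fibroblast list went from 272 to 2.90 CPM and from 28.1 to 9.56 CPM. NK cell genes went from 42.6 to 80.4 CPM and from 61.4 to 153 CPM. Of the splenic values Eomes gave 57.9 and 96.8 CPM. Gamma delta genes went from 47.8 to 6.52 CPM and from 36.9 to 8.60 CPM. Granulocyte progenitor genes were at 0 CPM in both pools labelled Pdcd1fl/fl. Under the label Pdcd1 cKO they went from 0.195 to 83.6 CPM. The part of these lists in the ratios was not tested.

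Members split in this comparison. Gimap4 was higher in the spleen under each label, by 0.87 (0.53 to 1.22) and 1.05 (0.91 to 1.18), and so was Gimap3 with 0.56 and 1.41. Gimap8 had 0.65 (-0.07 to 1.41) and 0.69 (0.42 to 0.97). Gimap6 had 0.21 and -0.16 (-0.23 to -0.10) and Gimap5 0.77 and -0.44 (-0.58 to -0.30), opposite signs under the 2 labels. With at least 2 CD8 UMIs asked of each cell, Gimap6 had -0.16 under the label Pdcd1fl/fl as well. Gimap1 had -0.25 and 0.03, both with intervals that include 0.

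The tumor CD8 pools were far below the splenic ones. The family had 1374 CPM in spleen and 216 CPM in tumor under the label Pdcd1fl/fl, 6.36-fold lower (5.93 to 6.81), a log2 ratio of -2.67 (-2.77 to -2.57). Under the label Pdcd1 cKO it had 1494 and 307 CPM, 4.87-fold lower (4.65 to 5.10), a log2 ratio of -2.28 (-2.35 to -2.22). At least 2-fold lower were 7 of 8 members under the label Pdcd1fl/fl, all but Gimap7, where 27.1% of 9047 genes were as low, and 6 of 8 under the label Pdcd1 cKO, all but Gimap5 and Gimap7, where 37.5% of 10950 genes were. The median gene under the label Pdcd1 cKO had a log2 ratio of -0.47, and relative to genes counted in both pools the family ratio there was -1.81. Under the label Pdcd1fl/fl the median was 0.02. Without cycling cells Gimap7 was past 2-fold as well under the label Pdcd1 cKO, 7 of 8 against 38.8% of 10302 genes.

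Gimap6 was lower in the tumor by 21.4-fold (18.3 to 25.2) and 20.3-fold (17.6 to 23.5), with log2 ratios of -4.42 and -4.34. Gimap8 had log2 ratios of -3.78 and -3.46, Gimap9 -3.40 and -2.31, and Gimap3 -2.82 and -3.46. The ratios of Gimap1 were -1.81 and -1.64 and those of Gimap4 -1.75 and -1.57. Gimap5 had -1.87 (-2.10 to -1.64) and -0.72 (-0.88 to -0.56), and Gimap7 -0.34 (-0.80 to 0.15) and -0.998 (-1.20 to -0.80). All 8 ratios were negative under each label and scaling tried, beside median genes at 0.02 and -0.47 with scaling by totals. The share of all genes with a negative ratio was not counted. Gimap7 under the label Pdcd1fl/fl turned to 0.25 with at least 2 CD8 UMIs asked of each cell.

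RNA of melanocytes and macrophages was present in the tumor CD8 pools. The melanocyte list (Pmel, Mlana, Dct, Tyrp1 and Tyr, 5 of 5 detected) summed to 6930 CPM in the library labelled Pdcd1fl/fl, Dct most abundant, and 3949 CPM under the label Pdcd1 cKO, Pmel most abundant. The macrophage list (7 of 7 detected, Lyz2 most abundant) summed to 60.4 and 406 CPM, and the fibroblast list to 230.1 CPM (5 of 5, Col1a2 most abundant) and 1.41 CPM (4 of 5, Col3a1 at 0). The T-cell list (Cd3d, Cd3e, Cd3g, Cd8a, Cd8b1 and Trac, 6 of 6) summed to 1892 and 3209 CPM, against 3426 and 4199 CPM in the spleen. No melanocyte marker was at 0 in either tumor pool.

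Tumor CD8 cells with at least 5 melanocyte or 3 macrophage UMIs were therefore set apart, a split chosen after seeing the data for the comparison with spleen. Under the label Pdcd1fl/fl 138 cells (40.1%) were of this kind, and under the label Pdcd1 cKO 88 (17.2%), with median depths of 26516.5 and 26576 UMIs. Their family level was 131 CPM (120.2 to 142) and 135 CPM (121 to 149.6), with 1103 and 1136 CPM of the T-cell list. The other tumor CD8 cells, with median depths of 9900 and 8911.5 UMIs, had 377 CPM (352 to 402) and 410.4 CPM (392 to 429.8), with 3376 and 4465 CPM of the T-cell list. Family and T-cell RNA were lower together where melanocyte or macrophage RNA was found.

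Without those cells the family remained below the spleen, with log2 ratios of -1.87 and -1.86 in place of -2.67 and -2.28. Gimap6 had -3.68 and -3.96, at 47.9 and 37.2 CPM. Under the label Pdcd1fl/fl Gimap1 with -0.83 and Gimap5 with -0.93 were no longer 2-fold lower, which left 5 of 8 members against 40.3% of 5460 genes. Under the label Pdcd1 cKO the same 6 of 8 were 2-fold lower, against 47.4% of 9837 genes. Gimap7 turned to 0.41 under the label Pdcd1fl/fl and shrank from -0.998 to -0.56 under the label Pdcd1 cKO. Gimap4 had 94.1 and 112.8 CPM and Gimap5 105.4 and 99.1 CPM in those cells. Gimap6 was thus also lower in tumor CD8 cells that held little RNA of these other cell types. The part of other RNA in the remaining difference was not tested.

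Between labels the family ratio was small in each tissue, and the spleen ratio changed sign with the scaling. In thymic Dntt-negative CD8 cells the log2 ratio of the library labelled Pdcd1 cKO over the library labelled Pdcd1fl/fl was 0.30 (0.20 to 0.39), with 0 of 8 members at least 2-fold higher against 2.65% of 8240 genes. Among those cells, the ones without cycling RNA had 1239 CPM (1147 to 1335) and 1339 CPM (1300 to 1379), with overlapping intervals. The ones with cycling RNA had 810 CPM (726 to 901) and 1207 CPM (1157 to 1259). In splenic CD8 cells the log2 ratio was 0.12 (0.05 to 0.19), with 1 of 8 (Gimap7) against 8.23% of 9074 genes, and it turned to -0.01 with mitochondrial, ribosomal protein and Malat1 counts left out of the totals and to -0.05 relative to the median. In tumor CD8 cells it was 0.50 (0.41 to 0.60), with 1 of 8 (Gimap9) against 4.74% of 10435 genes. The median gene had log2 ratios of -0.30 in the thymus, 0.18 in the spleen and -0.16 in the tumor, and relative to genes counted in both pools the family ratios were 0.60, -0.05 and 0.66. Gimap7 in the thymus (1.28) and Gimap1 in the tumor (1.02) were past 2-fold with that scaling, under which 5.23% and 6.20% of all genes were. With 1 library for each label, mouse, capture and label cannot be told apart.

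Among other values that moved with the labels, in the thymus the cycling list summed to 1261 against 370.2 CPM, and the fibroblast list to 272 CPM (4 of 5, Dcn most abundant) against 28.1 CPM (5 of 5). In the spleen the granulocyte progenitor list came to 0 CPM (0 of 4) against 83.6 CPM (4 of 4, Mpo most abundant), the NK cell list to 80.4 CPM (4 of 5, Ncr1 at 0) against 153 CPM (5 of 5), Eomes most abundant in each, and the erythroid list to 0.724 CPM (1 of 4, Alas2) against 24.2 CPM (4 of 4, Hbb-bs most abundant). The thymic levels with and without cycling RNA are given above, and the part of these lists in the label ratios was not tested. In the tumor, leaving out cells with melanocyte or macrophage RNA brought the family ratio from 0.50 to 0.12 (0.01 to 0.24), and asking at least 2 CD8 UMIs of each cell brought it to 0.23. With all filtered cells in place of the CD8 pools the thymus ratio was 0.68.

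Members with the largest label ratios differed by tissue. Gimap7 had 0.98 (0.36 to 1.66) in the thymus, 1.24 (0.82 to 1.69) in the spleen and 0.58 (0.31 to 0.85) in the tumor, and was the member with the highest ratio in the first 2 of these. Gimap9 had 0.11 in the thymus, -0.05 in the spleen and 1.03 (0.65 to 1.43) in the tumor, which was 1.12 without cells holding melanocyte or macrophage RNA. Gimap5 had 0.44 (0.16 to 0.74) in the thymus, -0.77 (-0.97 to -0.57) in the spleen and 0.39 (0.19 to 0.58) in the tumor, and the tumor value turned to -0.09 without those cells. Gimap6 had 0.28, -0.08 and -0.00, and in the tumor -0.37 without those cells. Gimap1 was higher under the label Pdcd1 cKO in each tissue, with 0.42, 0.69 and 0.86, the last 0.36 without those cells.

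Gimap3 and Gimap5 moved in opposite directions between the spleen libraries while their sum did not. Gimap3 had 101.4 and 183.6 CPM and Gimap5 200.6 and 117.4 CPM, so that the pair summed to 302.0 and 301.1 CPM, a log2 ratio of -0.00 (-0.16 to 0.15). Gimap3 gave 33.6% (29.1 to 38.3%) of the pair's UMIs in splenic CD8 cells of the library labelled Pdcd1fl/fl and 61.0% (58.9 to 63.0%) in the library labelled Pdcd1 cKO. It gave 36.9% (29.8 to 44.4%) and 30.2% (27.6 to 32.9%) in thymic Dntt-negative CD8 cells and 20.8% (17.2 to 24.8%) and 18.9% (15.9 to 22.2%) in tumor CD8 cells. The spleen library labelled Pdcd1 cKO stood apart from the other 5.

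That share held across the cells of each spleen library, in comparisons chosen after seeing the data. In CD8-negative cells it was 32.9% and 59.2%. With no cell filter it was 31.6% and 60.7%. Among splenic CD8 cells of the library labelled Pdcd1fl/fl, 77 had UMIs of Gimap3 only, 180 of Gimap5 only and 31 of both, and in the library labelled Pdcd1 cKO the numbers were 799, 498 and 214. The difference was found in each class of cells looked at, and what lies behind it was not tested.

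Reads of these 2 genes may be hard to tell apart, so that their separate levels are uncertain, and their sum too if reads that fit both were dropped. In the reference transcripts, the coding sequences of Gimap3 and Gimap5 were 89.4% identical over 897 aligned bases, and the transcripts had an identical run of 140 bases. No other pair of members had an identical run above 17 bases. In the last 500 bases of the transcripts, nearest to where a 3′ tag is expected, Gimap3 and Gimap5 were 56.0% identical with no shared run of 12 bases or more. How the pipeline assigned reads that fit both genes, and which annotation release and strand it counted, is not stated.

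**Figure D3:**
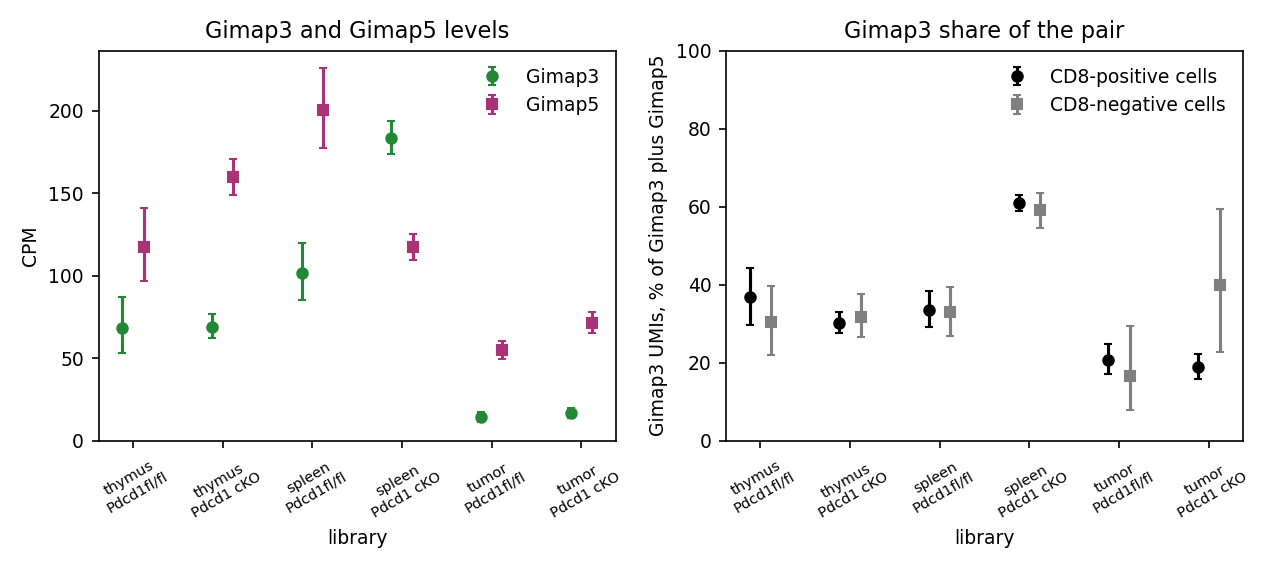
Levels of Gimap3 and Gimap5 in CD8 cells (CPM, left; thymus Dntt-negative) and Gimap3 as a percentage of the pair's UMIs (right) in each library, with exact 95% intervals. Gimap3 gives 61.0% of the pair in the CD8 cells of the spleen library labelled Pdcd1 cKO and between 18.9 and 36.9% in those of the other 5 libraries.

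Over the 12 pools the members did not follow a common course to the same degree. Pearson's r between log2(CPM + 1) of a member and of the sum of the other 7 was 0.98 for Gimap8, 0.95 for Gimap3, 0.89 for Gimap1, 0.81 for Gimap5, 0.73 for Gimap4, Gimap6 and Gimap9, and 0.51 for Gimap7. These values are descriptions: the 12 pools come from 6 libraries, 4 pools share each thymus library, and depth and tissue are common to all genes of a pool. Among 10623 genes with at least 200 UMIs, members included, the 5 outside the family whose level was most like its sum were Crybg1 (r 0.99), Epsti1 (0.98), Gramd3 (0.98), Nlrc5 (0.98) and Vps37b (0.98). Crybg1 had 13.7 and 26.4 CPM in Dntt-positive thymic CD8 cells, 68.5 and 61.4 CPM in Dntt-negative ones, 85.5 and 110.0 CPM in splenic and 8.70 and 11.6 CPM in tumor CD8 cells, the family's order of tissues.

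Genes of thymocyte maturation and egress were set beside the family, by the log2 ratio of Dntt-negative over Dntt-positive thymic CD8 cells. Klf2, a transcription factor of thymic exit, had 2.22 and 1.48, and S1pr1, the receptor by which cells leave, 2.08 and 1.49. Ms4a4b had 2.42 and 1.47, Il7r 2.20 and 1.37, Itgb7 2.14 and 1.30, Ccr7 1.97 and 1.66 and Foxo1 0.96 and 0.80, against medians of 1.44 and 1.39 for the GIMAP members. In tumor over spleen the same genes had -5.58 and -6.95 (Klf2), -5.25 and -5.67 (S1pr1), -1.01 and -1.11 (Ms4a4b), -5.99 and -5.28 (Il7r), -3.66 and -3.39 (Itgb7), -0.73 and -2.72 (Ccr7) and -3.59 and -2.86 (Foxo1), against medians of -2.34 and -1.98 for the GIMAP members.

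Genes reported to act with GIMAP proteins, or in the cell death that they influence, were mostly below 2-fold in the Dntt comparison. In the list of Bcl2, Bcl2l1, Mcl1, Bax, Bak1, Bcl2l11, Gsk3b, Gabarapl2, Gabarapl1 and Map1lc3b, 1 of 8 with enough UMIs was at least 2-fold higher in Dntt-negative CD8 cells of the library labelled Pdcd1fl/fl, and 0 of 10 in the library labelled Pdcd1 cKO, with medians of 0.32 and 0.06. Of all genes 8.85% and 4.79% were as high, so the list was near the share of all genes. The 1 gene was Bcl2, which keeps lymphocytes alive, with a log2 ratio of 1.63 (1.29 to 1.97) and, in the library labelled Pdcd1 cKO, 0.92. In tumor over spleen, 3 of 10 were at least 2-fold higher and 4 of 10 lower under each label, with medians of -0.94 and -0.96. Of all genes, 2528 of 9047 and 2027 of 10950 were higher and 2450 and 4101 lower, shares not far from those of the list. Bcl2 had -3.33 and -6.12 there, the pro-apoptotic Bcl2l11 -2.32 and -2.61, and the pro-apoptotic Bax and Bak1 1.78 and 1.35, and 2.43 and 1.80. Gabarapl2, the partner of Gimap6, had 197 and 185 CPM in splenic and 101.7 and 95.8 CPM in tumor CD8 cells, log2 ratios of -0.95 and -0.95.

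The 8 genes lie side by side on mouse chromosome 6, within chr6:48624143-48747826 of build GRCm39, in the order Gimap8, Gimap9, Gimap4, Gimap6, Gimap7, Gimap1, Gimap5 and Gimap3. Gimap6 and Gimap3 are on the minus strand and the other 6 on the plus strand. The file identifiers are ENSMUSG00000090019 (Gimap1), ENSMUSG00000039264 (Gimap3), ENSMUSG00000054435 (Gimap4), ENSMUSG00000043505 (Gimap5), ENSMUSG00000047867 (Gimap6), ENSMUSG00000043931 (Gimap7), ENSMUSG00000064262 (Gimap8) and ENSMUSG00000051124 (Gimap9). The annotation also holds Gm28053, a readthrough gene that spans Gimap7 to Gimap5 and is not in the files, and Gimap1os, an antisense RNA that overlaps Gimap1.

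Within 200 kb of the cluster, 42 other genes are annotated, of which 21 were in the files and 11 had at least 50 UMIs. Gimap1os followed the cluster, with 6.77 CPM in Dntt-positive and 17.4 CPM in Dntt-negative CD8 cells of the thymus labelled Pdcd1 cKO, a log2 ratio of 1.36 (0.85 to 1.88). It had 17.3 CPM in splenic and 5.94 CPM in tumor CD8 cells of that label, a ratio of -1.55 (-2.09 to -1.03). As it overlaps Gimap1 and the strand of counting is not stated, its UMIs may be reads of Gimap1. In the same comparison 4833403J16Rik had -2.59 (-3.88 to -1.51), on 8 and 50 UMIs. Tmem176b, a membrane protein of myeloid and other cells, went the other way in tumor over spleen, with 3.69 and 115.7 CPM and a ratio of 4.97 (4.42 to 5.58), and Tmem176a had 4.70. In Dntt-negative over Dntt-positive cells of that thymus library Tmem176b had -0.85 (-1.42 to -0.30), and in the thymus labelled Pdcd1fl/fl 0.73 (-0.10 to 1.53). The tissue differences of the GIMAP genes were thus not shared by every neighbour.

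Promoters are shown for 4 members because they differ most in the comparisons above: Gimap6 fell furthest in the tumor, Gimap4 had the widest range, and Gimap3 and Gimap5 parted in the spleen. Each is 1 promoter of 300 bases around an annotated start, from the RefSeq table of build GRCm38.p6, written 5′ to 3′ on the strand of the gene, with positions found by exact match in GRCm39: Gimap6 at chr6:48685129-48685428 (minus strand), Gimap4 at chr6:48661262-48661561 (plus), Gimap3 at chr6:48747736-48748035 (minus) and Gimap5 at chr6:48722881-48723180 (plus). Capitals mark matches to motifs of 4 factor families active in T cells.
Gimap6: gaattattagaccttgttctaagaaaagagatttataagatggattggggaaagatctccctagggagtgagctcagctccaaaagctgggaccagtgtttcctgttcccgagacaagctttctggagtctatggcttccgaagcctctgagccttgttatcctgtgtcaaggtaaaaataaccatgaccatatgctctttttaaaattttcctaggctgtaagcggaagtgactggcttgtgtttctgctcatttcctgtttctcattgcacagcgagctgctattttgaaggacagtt
Gimap4: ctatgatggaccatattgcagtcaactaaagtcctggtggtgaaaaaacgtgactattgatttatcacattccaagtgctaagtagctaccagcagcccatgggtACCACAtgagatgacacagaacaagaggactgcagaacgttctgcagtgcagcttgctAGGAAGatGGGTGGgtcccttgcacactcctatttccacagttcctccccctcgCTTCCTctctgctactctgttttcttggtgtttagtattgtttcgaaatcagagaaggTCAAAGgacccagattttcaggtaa
Gimap3: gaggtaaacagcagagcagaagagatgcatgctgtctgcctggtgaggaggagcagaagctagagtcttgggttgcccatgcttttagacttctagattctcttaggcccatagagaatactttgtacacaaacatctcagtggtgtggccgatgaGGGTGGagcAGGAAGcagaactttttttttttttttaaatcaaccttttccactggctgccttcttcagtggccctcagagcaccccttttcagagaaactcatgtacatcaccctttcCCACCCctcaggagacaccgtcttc
Gimap5: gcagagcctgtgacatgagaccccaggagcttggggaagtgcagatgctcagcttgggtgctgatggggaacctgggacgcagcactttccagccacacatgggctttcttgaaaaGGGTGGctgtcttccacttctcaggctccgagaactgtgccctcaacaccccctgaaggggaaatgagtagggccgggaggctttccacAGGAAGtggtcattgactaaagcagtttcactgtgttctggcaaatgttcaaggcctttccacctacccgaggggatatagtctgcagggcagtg

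The letters searched, on both strands, were AGGAAG for ETS factors, TGTGGT for RUNX factors, CCACCC for KLF factors and CTTTGA for TCF/LEF factors. The table held 9 promoters for the 8 members, of which 7 had an ETS match, against 35.4% of all 32851 promoters. The KLF letters were found in 5 of 9 against 31.5%, the RUNX letters in 3 of 9 against 16.8% and the TCF/LEF letters in 2 of 9 against 16.0%. Gimap4 had all 4 strings of letters, and the Gimap6 promoter had none of them in this window. The upstream start of Gimap8 had none either. Other sequences that these factors can bind were not searched, so a promoter without a match may still hold such sites. Gimap3 and Gimap5 each had ETS and KLF matches and no RUNX or TCF/LEF match. A match describes letters and not binding, which was not measured here.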

How the data were processed

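The data are UMI counts per gene and cell barcode from 6 mouse PIPseq libraries, deposited by the authors as raw count matrices with no normalization. Reads had been aligned to GRCm39, and the submitters' notes name Seurat 4.3.0. The annotation release is not given. Counts were read with Python 3.11.15, NumPy 2.4.6, SciPy 1.17.1 and pandas 2.3.3, figures drawn with Matplotlib 3.10.9 and sequences aligned with Biopython 1.88.

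A cell was kept with 500 genes or more, 1000 UMIs or more and no more than 20% mitochondrial UMIs. No doublets were removed, and an alternative left out the 5% of cells with most UMIs. UMIs were summed over each pool, defined by Dntt and by Cd8a plus Cd8b1 (0 or at least 1 UMI). Levels carry exact Poisson intervals, ratios exact conditional binomial intervals and shares Clopper-Pearson intervals, each at 95%. With 1 library per tissue and label no test was made. A gene was called past 2-fold among genes with at least 50 UMIs over both pools, with a pool at 0 set to 3 UMIs. Filtered totals ranged from 2220981 UMIs (spleen labelled Pdcd1fl/fl) to 19143524 UMIs (thymus labelled Pdcd1 cKO). Shares of cells with a UMI were taken after thinning each cell to 1000 UMIs with seed 1. Pools were scaled by their total, and as alternatives by the total without 13 mitochondrial genes, 92 ribosomal protein genes and Malat1, or by the median of ratios.

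Alternatives changed the class definitions, the cell filter, the scaling and the gene minimum, and left out cycling cells, deep cells or cells with melanocyte or macrophage RNA. Named genes are the 8 members, Pdcd1, Dntt, Cd8a and Cd8b1 as checks, members of gene lists where described, neighbours within 200 kb, and the 5 genes with the highest Pearson r of log2(CPM + 1) to the summed family over 12 pools among genes with at least 200 UMIs. The procedure was tested on simulated data. The members and lists were chosen with earlier results of these data known. Lists of NK cell, gamma delta T cell, erythroid, platelet and endothelial markers were summed as well. In CD8 pools (Dntt-negative in the thymus), NK genes came to between 35.4 and 153 CPM, and endothelial genes, Pecam1 or Cdh5 most abundant, to between 61.8 and 147 CPM. Gamma delta genes came to at most 47.8 CPM, erythroid genes to at most 24.2 CPM and platelet genes to at most 11.6 CPM. Some marker results are not reported here.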

Additional observations from a re-analysis of the deposited data

Results flagged for a closer look

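Gimap5 had label ratios of opposite sign in different tissues. The log2 ratio of the library labelled Pdcd1 cKO over the library labelled Pdcd1fl/fl was 0.44 in thymic Dntt-negative CD8 cells and -0.77 in splenic CD8 cells. It was -0.77 in the spleen against 0.39 in tumor CD8 cells, where it turned to -0.09 without cells holding melanocyte or macrophage RNA, so the tumor and spleen no longer differed in sign. In the spleen the sum of Gimap3 and Gimap5 had -0.00, and how reads that fit both genes were assigned is not stated. Each tissue had 1 library per label, and the difference between tissues was not tested.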

How the results depend on the processing

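Of 44 other computations of the family ratios, 16 stayed within the counting interval, 26 moved beyond it and 2 reversed, which means a change of sign from a value whose interval excluded 0. The sign first reported was kept in 41, and 1 came to 0.00. Of 352 for single members, 258 stayed within, 92 moved and 2 reversed in this sense. Others, such as Gimap7 in tumor over spleen, changed sign from a value whose interval included 0. The cause was not tested in any case.

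The Dntt ratio labelled Pdcd1fl/fl was 2.00 with at least 2 UMIs per positive call, 1.40 with thinned classes, 1.12 without cycling cells and 1.36 without the 5% of cells with most UMIs. Labelled Pdcd1 cKO it was 1.94, 0.77, 0.47 and 0.86, and 1.40 with median-of-ratios scaling. The thymus label ratio was 0.68 in all filtered cells, 0.17 with at least 2 CD8 UMIs, 0.52 with mitochondrial, ribosomal protein and Malat1 counts left out of the total, and 0.60 with median of ratios. The spleen label ratio reversed to -0.01 and -0.05 under these scalings. The tumor label ratio was 0.72 in all filtered cells, 0.23 with at least 2 CD8 UMIs, 0.66 with median of ratios and 0.12 without melanocyte or macrophage RNA cells, where Gimap5 reversed to -0.09.

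Spleen over thymus was 0.16 with at least 2 CD8 UMIs, where Gimap6 reversed to -0.16, 0.16 without cycling cells, 0.54 with the reduced total and 0.75 with median of ratios under the label Pdcd1fl/fl, and 0.00 and 0.13 with these scalings under the label Pdcd1 cKO. Tumor over spleen was -2.18 and -2.14 with at least 2 CD8 UMIs and -1.81 with median of ratios under the label Pdcd1 cKO. Without melanocyte or macrophage RNA cells, chosen after seeing the data, it was -1.87 and -1.86.

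Genes past 2-fold numbered, with at least 50 UMIs, at least 20 UMIs and at least 1 UMI in each pool, 628, 1116 and 2893 (higher without Dntt, labelled Pdcd1fl/fl), 487, 761 and 2022 (labelled Pdcd1 cKO), 218, 480 and 682 (label, thymus), 747, 1244 and 1515 (spleen), 495, 961 and 1998 (tumor), 142, 337 and 1161 (spleen over thymus, labelled Pdcd1fl/fl) and 799, 1286 and 2641 (labelled Pdcd1 cKO). Lower in tumor than spleen under the label Pdcd1fl/fl were 2450 with at least 50 UMIs and 5622 with at least 1. With median of ratios the higher share of calls went from 30.4 to 42.4% (Dntt, labelled Pdcd1 cKO), 25.6 to 64.4% (label, thymus), 85.2 to 71.4% (spleen), 37 to 54.5% (tumor), 16.7 to 51.4% (spleen over thymus, labelled Pdcd1fl/fl) and 33.1 to 49.2% (tumor over spleen, labelled Pdcd1 cKO).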
